A study of Rattus norvegicus with 2 samples.

Results

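The cytosolic ribosomal protein genes were followed through a mutagenesis screen with the piggyBac transposon in haploid rat embryonic stem cells. They were taken by symbol, as entries named Rpl or Rps with a number, Rpsa, or Rplp0 to Rplp2, leaving out the S6 kinase genes, and 66 of the 18156 genes in the deposited table met this rule. The entries comprised 37 genes of the large subunit, 27 of the small subunit and 2 of the stalk (Rplp0 and Rplp1). The rule used names only, and no measured value.

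The library after screening came from RAH-1 haploid cells that carried green fluorescent protein behind Rex1, a marker of naive pluripotency, and the transposon vector PB-SA-RFP, had been left to differentiate without direction, and were sorted as still fluorescent and returned to 2i/LIF stem cell medium on feeder cells. The library before screening came from the same kind of mutant RAH-1 cells, not differentiated. Both groups therefore share 1 haploid line, the reporter and the vector, and each group had 1 library, with no replicate check and no test across samples. Insertions were counted per gene after splinkerette PCR, which amplifies the genomic sequence beside a transposon end, with 1287231 insertions in genes (2351082 reads) after screening and 1528935 (2824155 reads) before screening. Insertion counts hold no expression, so that the cells were not checked against markers here.

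The cytosolic ribosome translates messenger RNA. Its small subunit reads the message, its large subunit joins amino acids, and a flexible stalk of acidic proteins recruits the translation factors. Dividing cells need nearly every ribosomal protein, and loss of 1 copy of some of them causes the red cell disorder Diamond-Blackfan anaemia in humans. Mammalian genomes also hold many processed copies of these genes, made from their messenger RNAs, so that short reads can be hard to place. A haploid cell has a single copy of each gene, so that an insertion can remove its product altogether. The vector carried a splice acceptor, which lets an insertion in an intron break a transcript when it lies in the gene's own direction.

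The identity of the entries was checked first. All 66 had a match in the RefSeq annotation of assembly GRCr8, of which 63 matched by gene number and 3 by symbol. For 5 of them the gene number belonged to another symbol. The numbers of Rps10, Rps27a and Rps29 led to the pseudogenes Rps10l1, Rps27a-ps1 and Rps29-ps17, and those of Rpl36a and Rpl39l to Rpl36al1 and Rpl39l1. The values given for these 5 symbols may therefore belong to a copy. A small nucleolar RNA gene, of the kind that ribosomal protein introns often carry, overlapped 23 of the members, and another protein-coding gene overlapped 10.

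PiggyBac inserts at the bases TTAA, and short stretches around such a site are shown to give the target in a few members. RefSeq promoter windows of GRCr8, from 250 bases before to 50 after the annotated start, were matched for 51 members, of which 27 (52.9%) held TTAA, against 53.9% of all windows. The motif reads the same on both strands. Of the 42 matched members with any insertion, 21 held it, as did 6 of the 9 matched members with no insertion. Positions of insertions were not used here, so that none of these sites is known to have been hit. The stretches belong to 2 members that were called higher after screening and 2 that were called lower, each with the TTAA nearest the gene's start in capitals.
Rplp0, chr12:46718487-46718516, minus strand: atagctgcgtagaTTAActagtgaggcggg
Rpl11, chr5:153560964-153560993, minus strand: gatgctggtggcaTTAAgaccggcagggct
Rpl39l, listed in RefSeq as Rpl39l1, chr10:5966623-5966652, minus strand: ggcggccattcttTTAActgccaggccgtc
Rpl4, chr8:73566353-73566382, plus strand: cctttaaaattttTTAAgtgtagcagaaag
These sites lay 113 bases (Rplp0), 178 bases (Rpl11), 18 bases (Rpl39l) and 111 bases (Rpl4) before the start. The window of Rpl18, which had the most insertions before screening of the members with none after, held no TTAA.

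Across the whole family, insertions were found in 44 members after and 44 before screening. In 35 members they were found in both libraries, in 9 only after screening, in 9 only before, and in 13 in neither. Of all 18156 genes, 1604 were hit only after and 1857 only before screening. The share with no insertion at all was 19.7%, against 21.1% of all genes. In sum the members held 2013 insertions after and 1787 before screening, a 1.34-fold higher share of insertions in genes (95% counting interval 1.25 to 1.43). Rpl37a alone gave 18.2% of the insertions after screening, and without it the fold was 1.09 (1.02 to 1.17). The large subunit held 1348 insertions after and 1179 before (1.36-fold, 1.26 to 1.47), and the small subunit 503 after and 578 before (1.03-fold, 0.915 to 1.17). Rpl37a, with 367 after and 0 before, belongs to the large subunit. Without it the large subunit held 981 after against 1179 before, so that its higher share rests on that entry. Counts were not scaled to gene length, so that they compare libraries and not genes.

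A gene was measured when both libraries together held at least 10 insertions, which 46 members reached. A call of higher or lower needed a 4-fold or greater ratio of shares whose 95% interval left out 1. This is a rule of size, and 1 library per group allows no p-value. The table also gives disrupting insertions, which for most genes equal all insertions less the reverse ones, and forward and reverse insertions by direction relative to the gene. By it 12 members were called higher after screening, against a background of 19.5% of all measured genes, and 9 were called lower, against a background of 21.7%. Either call was made for 21 of the 46, against 41.2% of all measured genes. At least 2-fold differences were found upward in 16 members and downward in 15, against 31.5% upward and 32.4% downward of all measured genes. The median log2 ratio was 0.20 over the measured members (quartiles -1.43 and 2.10) and -0.01 over all measured genes (quartiles -1.60 and 1.45). The 27 measured genes of the large subunit had a median of 0.30 and the 18 of the small subunit a median of -0.74. The family as a whole thus lay close to all genes, while its members spread widely to both sides.

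**Figure D1:**
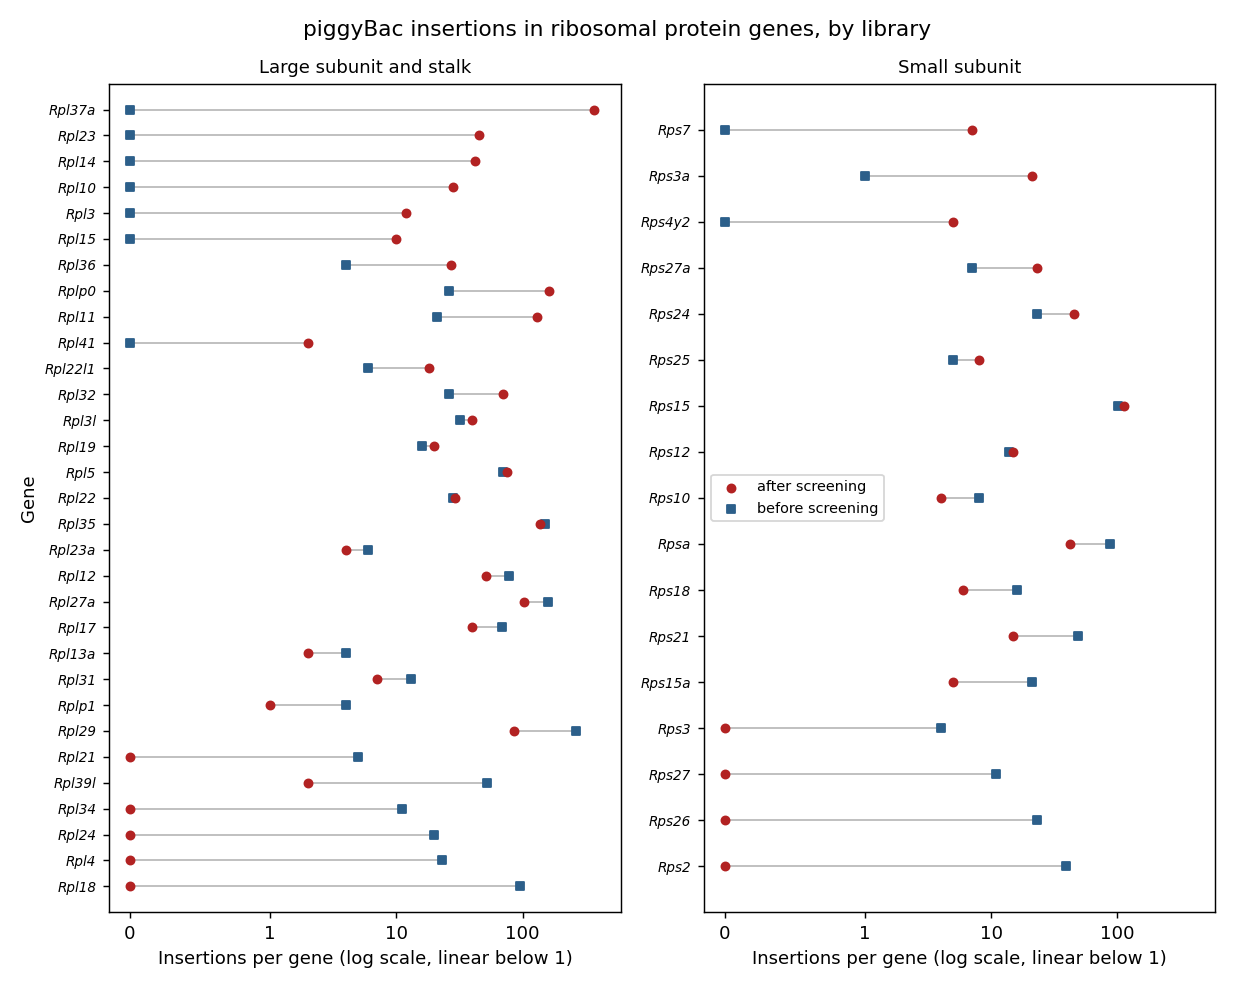
Insertions per gene (horizontal axis, log scale, linear below 1) in the library after screening (circles) and the library before screening (squares), for ribosomal protein genes with at least 1 insertion, ordered by ratio, leaving out 5 that are not reported by name. Rpl37a stands at 367 after and 0 before screening, and Rpl18 at 0 after and 96 before.

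**Figure D2:**
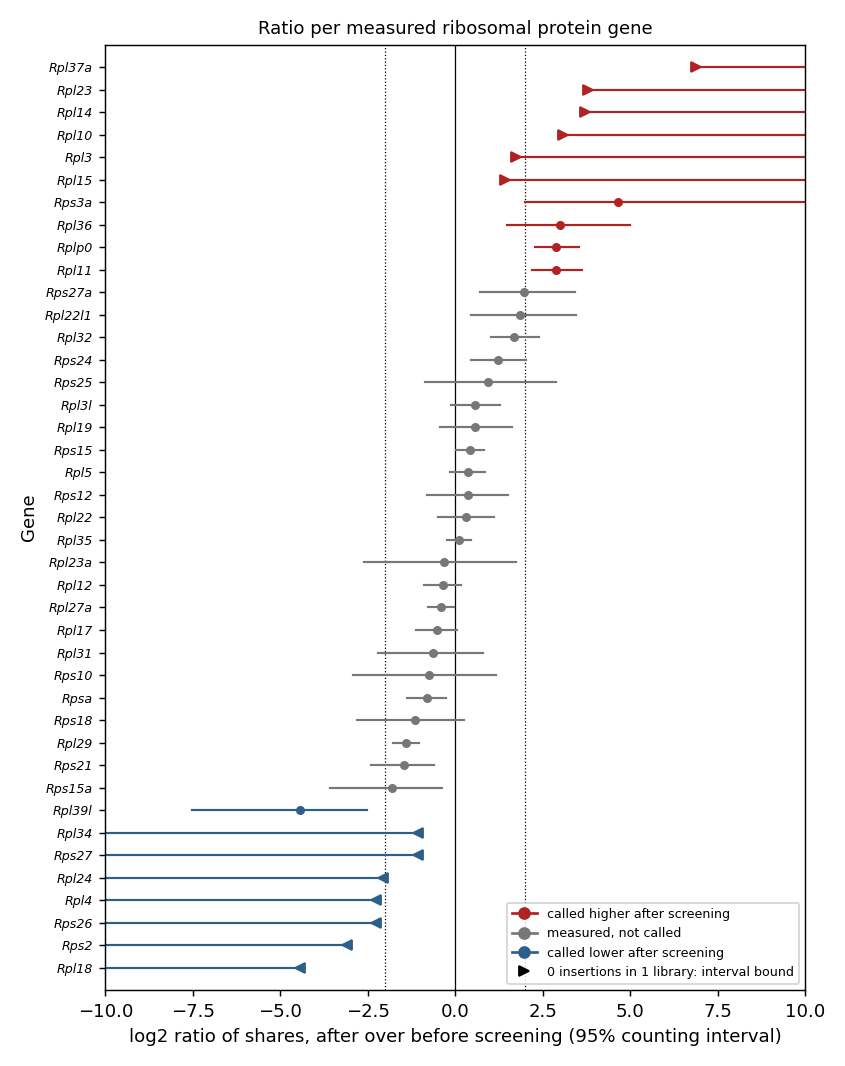
The log2 ratio of shares after over before screening (horizontal axis) with its 95% counting interval, for 41 measured members. Triangles mark the interval bound where 1 library held 0 insertions, dotted lines mark 4-fold, 10 of the members shown are called higher and 8 lower, and bars that reach the edge of the plot run beyond it.

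In the stalk, Rplp0 (ENSRNOG00000001148), the scaffold that holds the acidic proteins, had 161 insertions after screening and 26 before. This was a 7.36-fold higher share (4.84 to 11.6), and disrupting insertions numbered 100 after and 14 before. Its acidic partner Rplp1 had 1 insertion after and 4 before screening, too few to be measured. The other acidic partner, Rplp2, was entered as 2 numbered copies outside the rule, both at 0 in both libraries.

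Rpl5 and Rpl11 carry the 5S ribosomal RNA into the large subunit and, when ribosome assembly fails, bind the p53 ligase Mdm2. Rpl11 (ENSRNOG00000026260) had 129 insertions after and 21 before screening (7.30-fold higher, 4.58 to 12.2). Rpl5 (ENSRNOG00000023529) had 75 after and 70 before (1.27-fold, 0.906 to 1.79), with an interval that included 1. The counting interval of Rpl11 lay wholly above that of Rpl5, and with 1 library per group the difference between these members of 1 particle was not tested.

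In the large subunit, 6 members had no insertion before screening and at least 10 after. Rpl37a (ENSRNOG00000023385), a zinc finger protein of the large subunit, had 367 insertions and 540 reads after screening and 0 of both before (at least 145-fold higher against a floor of 3 insertions, which is used for every count of 0 below). Rpl23, which lies at the face between the subunits, had 45 (at least 17.8-fold) and Rpl14 had 42 (at least 16.6-fold). Rpl10, which joins the subunit late in its assembly, had 28 (at least 11.1-fold). Rpl3, near the peptidyl transferase centre, had 12 (at least 4.75-fold by the floor, with an interval bound of 3.30-fold). Rpl15 had 10 (at least 3.96-fold, so that it passed 4-fold only with the 0 taken as it stands). Rpl36 had 27 insertions after and 4 before (8.02-fold, 2.79 to 31.5). Within this group the counts after screening thus ran between 10 and 367, and Rpl37a stood far above the others.

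The large subunit also held 6 members that were called lower. Rpl18 (ENSRNOG00000021035) had 0 insertions after and 96 before screening (at least 26.9-fold lower), with 36 forward and 46 reverse insertions before. Rpl4, whose loop lines the exit tunnel of the growing chain, had 0 after and 23 before (at least 6.45-fold lower). Rpl24, which bridges to the small subunit, had 0 after and 20 before (at least 5.61-fold lower), and Rpl34 had 0 after and 11 before (at least 3.09-fold lower, so that with the 0 at its floor it would not be called). Rpl39l, a relative of the tunnel protein Rpl39 known for its expression in the testis, had 2 after and 52 before (21.9-fold lower, 5.76 to 186). The members named here thus held at most 2 insertions after screening.

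In the small subunit, 3 members were called higher and 3 lower. Among those called higher, Rps3a had 21 insertions after and 1 before screening (24.9-fold, 4.01 to 1032). On the other side, Rps2, which lines the entry channel of the messenger RNA, had 0 after and 39 before (at least 10.9-fold lower). Rps26, which lies at the exit channel and is mutated in some patients with Diamond-Blackfan anaemia, had 0 after and 23 before (at least 6.45-fold lower). Rps27, a zinc finger protein, had 0 after and 11 before (at least 3.09-fold lower, and likewise not called with the 0 at its floor). Each side of the small subunit thus held few genes, and the interval of Rps3a was wide because of its count of 1 before screening.

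Called members mostly held insertions of both orientations. In the library with the higher count, 11 of the 12 members called higher and 9 of the 9 called lower held forward and reverse insertions. The exception was Rpl15, with 2 forward and 0 reverse among its 10. All 21 had disrupting insertions in that library. At 10 to 367 insertions there, such results are likely for any gene, so that they are no check on the calls. The same counts over all called genes were not analysed here. Reads gave the same call for 11 of the 12 and 8 of the 9, disrupting insertions for 11 and 7, and neither measure called a member in the opposite direction. Disrupting insertions are a part of the same insertions and reads are counts of them, so that this is no independent check.

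The other 25 measured members were not called, and for 13 of them the interval included 1. Those closest to an equal share were Rpl35, Rpl22, Rpl23a and, with the same ratio, Rpl5 and Rps12. Rpl35, which sits at the mouth of the exit tunnel, had 137 insertions after and 151 before screening (1.08-fold, 0.849 to 1.37). Rpl22 had 29 after and 28 before (1.23-fold, 0.706 to 2.15). Rpl23a had only 4 after and 6 before, so that its interval ran from 0.164 to 3.34 around 0.792. Rps15, with 114 after and 102 before, had a share 1.33-fold higher (1.01 to 1.75), and Rpl27a, with 102 after and 160 before, a share 1.32-fold lower (1.02 to 1.71). Rps12, a protein of the small subunit, had 15 after and 14 before (1.27-fold, 0.573 to 2.85). The intervals of Rps15 and Rpl27a thus only just left out 1, and that of Rpl23a was too wide to tell a rise from a fall.

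Rpl29 had most insertions before screening, with 85 after and 266 before (2.63-fold lower, 2.06 to 3.40). In GRCr8 its gene model spans 12 other coding genes, among them Poc1a with 324 after and 130 before and Pik3r4 with 0 after and 101 before, so that the count of Rpl29 depends on how far the authors' annotation extended it. Rpsa, also known as a precursor of the laminin receptor, had 42 after and 88 before (1.76-fold lower, 1.21 to 2.61). In all, 7 uncalled members had an interval below 1 and 5 an interval above 1. Rps24, another gene of Diamond-Blackfan anaemia, was among the 5, with 45 after and 23 before (2.32-fold higher, 1.38 to 4.02), as was Rpl32, with 70 after and 26 before (3.20-fold higher, 2.01 to 5.23).

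Of the remaining members, 7 had fewer than 10 insertions. Rps7, Rps4y2 and Rpl41 had 7, 5 and 2 after screening and 0 before, Rpl13a had 2 after and 4 before, and Rpl21 and Rps3 had 0 after and 5 and 4 before, besides Rplp1 above. The 13 members with none were Rpl6, Rpl7, Rpl26, Rpl27, Rpl28, Rpl30, Rpl36a, Rps4x, Rps16, Rps23, Rps27l, Rps28 and Rps29. With none counted, the share can still be as high as 0.000233% of insertions after and 0.000196% before screening. No insertion was counted in these genes at this depth, and whether reads from them were placed elsewhere was not tested.

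Calls were more frequent where insertions were few, in the family as among all genes. Of the 18 members with 10 to under 30 insertions over both libraries, 10 were called (55.6%), against 61.8% of all such genes. The counts were 7 of 15 (46.7%) with 30 to under 100, against 53.8%, and 3 of 11 (27.3%) with 100 to under 300, against 36.0%. Of the 2 members with at least 300 insertions, Rpl37a was called and Rpl29 was not, against 14.6% of all such genes. The measured members had a median of 43.5 insertions over both libraries and all measured genes 105. The members thus held fewer insertions per gene than the typical gene, and the differences between the family and all genes in these ranges were not tested.

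**Figure D3:**
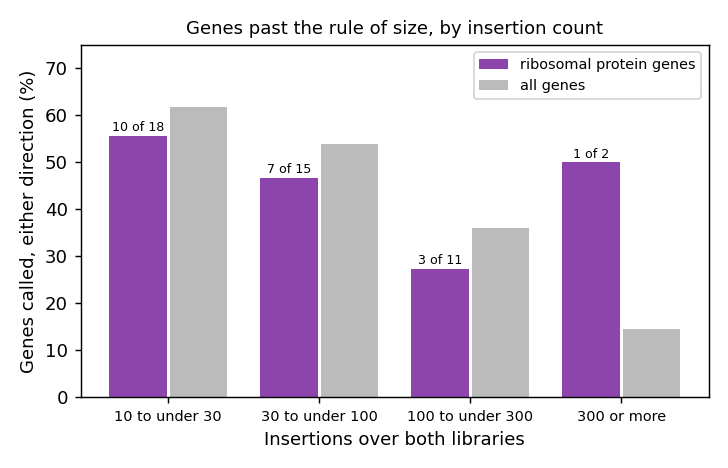
Share of genes called in either direction (vertical axis, %) by insertions over both libraries, for ribosomal protein genes (left bars, with counts) and all genes (right bars). Both decline over the first 3 ranges, where the family gives 10 of 18, 7 of 15 and 3 of 11.

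Related copies often had unlike counts. Rpl3 had 12 insertions after and 0 before screening, while its muscle relative Rpl3l had 40 after and 32 before (1.48-fold, 0.909 to 2.44). Rpl22l1 had 18 after and 6 before (3.56-fold higher, 1.36 to 11.0), beside the 29 after and 28 before of Rpl22. Rps27, at 0 after and 11 before, has the relative Rps27l, which had none in either library. Beside the 2 after and 52 before of Rpl39l, the 3 numbered entries of Rpl39 held a single insertion, before screening. Rpl36a had none, and its relative Rpl36al had 0 after and 4 before. Rps4y2, at 5 after and 0 before, held insertions with no counted orientation, and Rps4x and its pseudogene entry Rps4x-ps1 had none.

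Rpl37a had a near double in the table. The pseudogene entry Rpl37a-ps1 had 364 insertions and 536 reads after screening and 0 before, close to the 367 and 540 of Rpl37a, although RefSeq places genes of these symbols on different chromosomes. The 2 entries differed in kind. Rpl37a held 66 forward and 53 reverse insertions and Rpl37a-ps1 held 153 and 149. Rpl37a was also the single member whose disrupting count (205) did not equal all insertions less the reverse ones. The count of Rpl37a is therefore uncertain, and so is the family sum that rests on it.

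Further ribosomal protein symbols stood in the table only as numbered copies, which the rule left out. There were 44 such entries for 17 symbols, and 22 of them had no insertion in either library. With 3 further copies, 13 of these 47 entries were measured, of which 3 were called higher and 6 lower, against 19.5% and 21.7% of all measured genes. The S6 kinase substrate Rps6 had 2 entries, with 119 insertions after and 190 before in one (1.34-fold lower, 1.06 to 1.70) and 142 after and 194 before in the other (1.15-fold lower, 0.922 to 1.44). Rps20_2 had 51 after and 0 before (at least 20.2-fold higher) and Rps13_2 had 30 after and 0 before (at least 11.9-fold higher). Rpl9_1 had 0 after and 111 before (at least 31.2-fold lower), and both entries of Rps19l2 had 2 after, with 47 and 46 before. Both entries of Rps14 had none, and Rps19 under its own symbol was not analysed here. In Rpl8_3, with 24 after and 14 before, and Rpl13_2, with 5 after and 11 before, all insertions were disrupting and none had a counted orientation. Numbered copies of 1 symbol differed in several cases, such as Rpl9, whose other entries had 4 and 1 insertions after and 0 before. The other entries of Rps20 had 0 after, with 1 and 4 before. Rpl10a_1 had 2 after and 0 before, and Rpl10a_2 had 0 after and 15 before. Rps13_1, with 3 after and 0 before, lay on the side of Rps13_2. The entries of Rps19l2 and those of Rps6 were close to one another, and both Rps19l2 entries are among the 6 called lower.

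Raw counts of members and of the genes they overlap were alike in 1 of the first 4 pairs given here, that of Rps27a. The gene that the number of Rps27a leads to overlaps Foxj3, a forkhead factor gene. Foxj3 had 22 insertions after and 6 before, beside 23 after and 7 before for Rps27a (3.90-fold higher, 1.62 to 10.8). Of the 23, 7 were forward and 12 reverse, and whether both entries counted the same insertions was not tested. Rpl27a overlaps Trim66, which had 99 after and 8 before, beside 102 after and 160 before for Rpl27a. Rpl19, with 20 after and 16 before, overlaps the calcium channel gene Cacnb1, with 393 after and 380 before. Their ratios were closer than their counts, at 1.48-fold (0.731 to 3.06) for Rpl19 and 1.23-fold (1.06 to 1.42) for Cacnb1. Rps23 had none, while the overlapping Atp6ap1l had 2 after and 65 before. Rpl31, with 7 after and 13 before (1.56-fold lower, 0.580 to 4.63), overlaps Tbc1d8, with 193 after and 367 before (1.60-fold lower). Insertions in a shared stretch can belong to either gene. Of the 17 measured members with an overlapping small nucleolar RNA gene, 6 were called higher and 3 lower, and of the 29 without, 6 higher and 6 lower, against 19.5% and 21.7% of all measured genes. The difference between these groups was not tested.

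The kinds of insertion were compared next. Where the disrupting count equalled all insertions less the reverse ones, insertions without an orientation in the table were taken to lie in exons, where an insertion disrupts whatever its direction. They made up 24.4% of the insertions in the family after screening (22.4 to 26.6) and 23.8% before (21.8 to 25.8). Among all genes they made up 16.3% after (16.2 to 16.4) and 13.9% before (13.8 to 13.9), so that the family held more exon insertions in both libraries, by more than the counting intervals. Rpl37a did not enter the value after screening, and the share of exons in gene length was not analysed here. Between the libraries the family's own share differed by less than its interval. In the small subunit the share was 26.8% after (23.0 to 30.9) and 27.7% before (24.1 to 31.5), and in the large subunit 22.2% after and 22.0% before.

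Disrupting insertions made up 59.2% in the family after screening (57.0 to 61.4) and 60.3% before (58.0 to 62.5). The share in all genes, 57.6% after and 56.5% before, lay inside the family's interval after screening and below it before. Of the oriented insertions in the family, 47.8% were forward after (45.1 to 50.5) and 47.9% before (45.2 to 50.6), and the values of all genes, 49.5% after and 49.6% before, lay inside both intervals. Over members with at least 10 insertions in a library, the disrupting share had a median of 58.3% after and 56.7% before. It was highest in Rpl15 after screening, at 100%. Between the libraries, the family's disrupting and forward shares thus differed by less than their counting intervals.

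**Figure D4:**
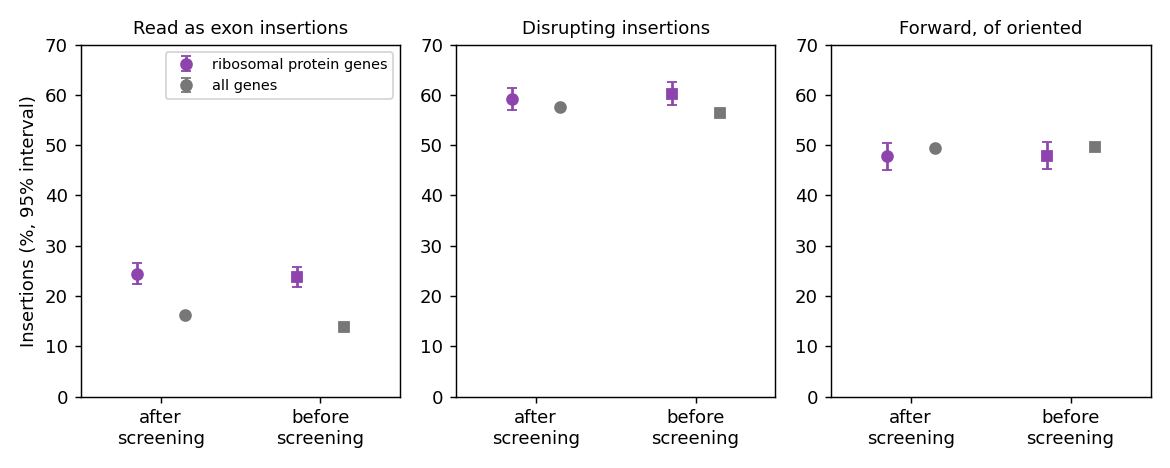
Share of insertions (vertical axis, %, with 95% counting intervals) read as exon insertions, disrupting, and forward among oriented ones, in ribosomal protein genes and all genes, after and before screening. The exon share of the family, 24.4% after and 23.8% before, lies above that of all genes, 16.3% after and 13.9% before.

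Reads per insertion were 1.34 in the family after screening (1.31 to 1.37) and 1.40 before (1.36 to 1.43), against 1.83 after and 1.85 before in all genes. The median over genes with at least 10 insertions was 1.32 after in the family and 1.32 in all genes, and 1.39 before in the family against 1.37. The typical member was thus read as deeply as the typical gene, while the highest values among all genes were 331 after and 250 before. In the family the highest values were those of Rpl12 after screening, at 1.96, and Rps18 before, at 2.13.

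Genes that build the ribosome or work with it were set beside the family by lists. Of 61 measured ribosome assembly factors, 10 were called higher (16.4%) and 19 lower (31.1%), against 19.5% and 21.7% of all measured genes, with a median log2 ratio of -0.53. Nolc1, a nucleolar chaperone of small nucleolar particles, had 0 insertions after and 245 before screening (at least 68.8-fold lower). Pes1, of the complex that processes large subunit RNA, had 4 after and 392 before (82.5-fold lower, 32.0 to 304). Lsg1, a GTPase of late large subunit assembly, had 0 after and 140 before (at least 39.3-fold lower), and Riok2, a kinase of small subunit maturation, had 74 after and 0 before (at least 29.3-fold higher). The list was picked with earlier results of these data known, and its difference from all genes was not tested.

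Of 38 measured translation factors, 12 were called higher (31.6%) and 9 lower (23.7%), against 19.5% and 21.7% of all measured genes, with a median of 0.56. This difference was not tested either. The helicase genes Eif4a2 and Eif4a1 had 82 and 63 insertions after screening and 0 before (at least 32.5-fold and 24.9-fold higher). Eif2b5, of the exchange factor for eIF2, had 0 after and 114 before (at least 32.0-fold lower). Eif4ebp2, which holds back the cap-binding protein, had 7 after and 365 before (43.9-fold lower, 21.1 to 110). Both helicase genes were thus called in the same direction.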

How the data were processed

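Per the labels, 1 library was taken after and 1 before screening. The authors trimmed adapters and transposon tags with the FASTX toolkit, then aligned reads and assigned insertions with HaSAPPy, per the methods of the study (no version is given in these sources). The labels describe RNA libraries instead, with HISAT2 2.0.5 and, for counting, featureCounts 1.5.0-p3 in the submitters' processing notes. The build is uncertain, since the table's Ensembl identifiers are those of rat and the assembly named in the methods is that of mouse. The authors deposited raw counts per gene of insertions, disrupting, forward and reverse insertions and reads, and 33 other columns were not used. The library suffix in the column names is not explained by the labels.

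Shares were taken of all insertions assigned to genes. The entry for insertions assigned to no gene (57.9% of insertions after and 57.3% before screening) stayed out, except in 1 alternative. Intervals of shares and ratios were exact Clopper-Pearson 95% intervals (SciPy 1.17.1) and cover counting error only, since PCR products are not independent molecules. Forward and reverse insertions of a gene may also not be independent, which can make them too narrow. Log2 ratios used a pseudocount of 0.5 insertions. The members, lists, rules and alternatives were chosen with earlier results of these data known. Named in full were the called members, the 6 with most insertions in each library, the 4 nearest an equal share, chosen members with known roles, paralogous copies, and up to 4 genes per other list (ribosome assembly factors, translation factors, ribosome-linked genes). Members named beyond this rule, such as Rps24, Rpl32 and Rpl12, and the overlapping genes were chosen after their values were seen. Some genes that this rule names are not reported here by name, but are in every count and sum.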

Additional observations from a re-analysis of the deposited data

How the results depend on the processing

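No paired analysis was possible because there was 1 library after and 1 before screening. With at least 50 insertions required, 22 members were measured, and the 12 called higher and 9 called lower became 5 and 2. A 2-fold rule that also required an interval without 1 gave 16 and 14. The other settings tried for these counts (reads, disrupting insertions, no filter, scaling by the median ratio, totals with unassigned insertions, 0 at its floor, halved insertions, no entries of identical counts) gave 10 to 14 higher and 7 to 9 lower. Scaling by the median ratio of 4082 genes took 0.11 off every log2 ratio and made the fold of the family's summed share 1.24. Without Rpl37a, and with the main scaling, the fold of the summed share was 1.09 (1.02 to 1.17). Both changes together were not tried. Since the median ratio lowers every ratio alike, it would lower this fold too and bring its interval across 1. The pooled disrupting share before screening, 60.3%, was 56.7% as a median over members, and the cause was not tested. The median log2 ratio of members lay between 0.07 and 0.20 under all settings tried. Of the 46 measured members, 1 moved out of its counting interval by disrupting insertions (Rps25, 3.68 against 0.88), and 0 by reads or by the median ratio. With at least 50 insertions, 5 assembly factors were called higher and 12 lower, and 6 translation factors higher and 5 lower. Of the ribosome-linked genes, 1 was then called higher and 3 lower, and disrupting insertions called 5 higher. Depth limits sparsely hit members most, such as Rpl23a, whose interval spans several fold.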

Other observations

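Genes at the edge of the ribosome gave a mixed picture. Of 16 measured members of a list of ribosome-linked genes, 3 were called higher and 6 lower, against 19.5% and 21.7% of all measured genes. Their median log2 ratio was -0.82, against -0.01 over all measured genes, and neither difference was tested. Fau encodes a ribosomal protein of the small subunit fused to a ubiquitin-like protein. It had 32 insertions after and 8 before screening (4.75-fold higher, 2.14 to 11.9). Rps6ka4, a kinase gene of the MSK group, had 0 after and 379 before (at least 106-fold lower). Rack1, a scaffold bound to the small subunit, had 91 after and 14 before (7.72-fold higher, 4.37 to 14.7).

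Hbs1l and Pelo, which together rescue stalled ribosomes, were both called lower. Hbs1l had 23 insertions after and 213 before screening (7.80-fold lower, 5.06 to 12.6) and Pelo had 0 after and 20 before (at least 5.61-fold lower). Btf3, of the complex that binds new chains at the tunnel mouth, had 0 after and 23 before (at least 6.45-fold lower). Rps6kb1, which encodes the main kinase of Rps6, had 60 after and 20 before (3.56-fold higher, 2.12 to 6.24), while Rps6kb2 had none in either library. Kinase genes of the related RSK and MSK groups stood on both sides, with Rps6ka3 at 24 after and 2 before (14.3-fold higher, 3.54 to 124) and Rps6ka5 at 33 after and 205 before (5.23-fold lower, 3.61 to 7.80). Apart from Rps6ka4, Hbs1l, Btf3 and Rack1, the genes named here were chosen after their values were seen.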
